A study of Mus musculus with 3 samples.

Results

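The 10 genes described here encode proteins that shorten or prolong the life of messenger RNAs in macrophages: Zfp36, Zfp36l1, Zfp36l2, Zc3h12a, Zc3h12c, Zc3h12d, Rc3h1, Rc3h2, Khsrp and Elavl1. They were chosen by symbol, and all 10 were found among the 55536 annotated genes of the gene tables, of which 24180 had a TPM above 0 in at least 1 library and were tested. TPM, transcript abundance normalised for transcript length, allows different genes to be set side by side within a library.

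The RNA came from the chromatin fraction of C57BL/6J bone marrow-derived macrophages, cells grown from marrow progenitors, and was sequenced after depletion of ribosomal RNA. The labels give 1 group of 3 biological replicates and no untreated group. Lipid A, the part of bacterial lipopolysaccharide that Toll-like receptor 4 senses, was given at 100 ng/ml for 12 h and removed for 12 h. The same dose was then added back for 30 min before harvest. Replicates 1, 2 and 3 were made from 1000, 250 and 500 ng of RNA. Sex and age are given as not collected, and the 3 biosamples share a donor identifier.

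Chromatin-bound RNA is rich in transcripts that are still being made or spliced, so a level here lies closer to transcription than a level of finished mRNA. Many inflammatory mRNAs carry AU-rich elements in the 3′ UTR. ZFP36 (tristetraprolin), ZFP36L1 and ZFP36L2 bind such elements through CCCH zinc fingers and recruit deadenylases, and KHSRP also promotes decay of AU-rich mRNAs. ELAVL1 (HuR) binds AU- and U-rich elements and mostly stabilises its targets. The roquins RC3H1 and RC3H2 bind stem-loops and recruit deadenylases, and the regnases of the Zc3h12 family are endoribonucleases, of which ZC3H12A (regnase-1) cuts stem-loop RNAs such as the Il6 mRNA.

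The libraries summed to 12532722 expected counts in replicate 1, 18395358 in replicate 2 and 18237730 in replicate 3. All 10 macrophage markers were above 1 TPM by the test defined below, with a median of 91.2 TPM. In the gene table, the markers of other cells above 1 TPM were Cd4 among 8 lymphoid genes, none among 8 granulocyte and mast cell genes, Batf3 among 6 dendritic cell genes, Vwf at 28.1 TPM among 8 stromal, endothelial and epithelial genes, and Pf4 among 6 erythroid and megakaryocyte genes. There Cd3e, Ncr1, S100a8, Ly6g, Elane, Mpo, Epcam and Krt18 were at 0 in all libraries. The second transcript table, made by another quantification, called 3 of the 8 lymphoid genes, 1 of the 8 granulocyte and mast cell genes, 3 of the 6 dendritic cell genes, 3 of the 8 stromal, endothelial and epithelial genes and 2 of the 6 erythroid and megakaryocyte genes. In it Cd3d averaged 15.4 TPM, against 0.0167 TPM in the gene table, and Mpo 1.74 TPM. Replicate 2 stood apart: the 17 known targets of these factors summed to 2312 TPM in replicate 1, 917.4 TPM in replicate 2 and 2881 TPM in replicate 3.

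Several of these genes carry, in their own 3′ UTRs, the AU-rich letters that the ZFP36 proteins bind. The nonamer TTATTTATT, which holds the heptamer TATTTAT, was searched on the sense strand of 1 coding transcript a gene, the one with the highest counts. The sites are printed to show where these letters stand in the messages of the genes. Each line gives 25 bases of mm10 sequence from the GENCODE M21 transcripts, 5′ to 3′ along the RNA and written with T, with the nonamer in capitals.

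Zfp36, chr7:28376953-28376977, minus strand: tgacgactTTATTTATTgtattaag
Zfp36l1, chr12:80108169-80108193, minus strand: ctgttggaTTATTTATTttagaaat
Zfp36l2, chr17:84184916-84184940, minus strand: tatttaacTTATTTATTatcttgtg
Rc3h1, chr1:160970045-160970069, plus strand: tttactcaTTATTTATTgagatgag
Rc3h2, chr2:37373289-37373313, minus strand: aagacattTTATTTATTttactctg
Elavl1, first of 8, chr8:4285790-4285814, minus strand: catgaaaaTTATTTATTtatttatt
Elavl1, last of 8, chr8:4285744-4285768, minus strand: ttatttatTTATTTATTacttgtga

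At least 1 nonamer stood in 6 of the 10 genes, against 7.43% of the 20784 genes with a 3′ UTR of at least 20 bases. The heptamer stood in 7 of the 10, against 26.9% of those genes, a share not matched on length. Zfp36, Zfp36l1 and Zfp36l2 each held 3 heptamers and 1 nonamer. Among genes with a 3′ UTR within 20% of the length of that of Zfp36 (767 bases), 4.19% held a nonamer. The share among genes matched on length was 9.81% for Zfp36l1 and 9.83% for Zfp36l2. For the heptamer the matched shares were 19.6% for Zfp36, 38.8% for Zfp36l1 and 38.7% for Zfp36l2. They were higher for genes with longer 3′ UTRs: 60.5% for Zc3h12c, 60.8% for Elavl1, 68.2% for Rc3h2 and 77.8% for Rc3h1. In these longer 3′ UTRs a heptamer is thus the more common case.

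Long 3′ UTRs hold such letters more often, so the roquins are read against a higher share. The nonamer stood in 27.6% of genes with a 3′ UTR about as long as that of Rc3h1 (7181 bases) and in 22.5% of those about as long as that of Rc3h2 (5160 bases). Elavl1 held 8 nonamers, most of them overlapping a neighbour, within 55 bases of its 4218-base 3′ UTR, from base 3794 to base 3848. A nonamer stood in 17.9% of genes with a 3′ UTR of that length. Zc3h12c held 2 heptamers and no nonamer, and Zc3h12a, Zc3h12d and Khsrp held neither. A match describes letters only and no binding was measured.

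Of the 10 genes, 9 had a promoter entry in the RefSeq table (GRCm38.p6), which runs from 250 bases before to 50 bases after a start; Zfp36l2 is the gene not matched. The CArG box, the element of serum response factor, was searched on both strands and stood in 1.63% of 32851 promoters. GCGGGGGCG, a motif of EGR proteins, stood in 2.91% of promoters on either strand. Zfp36 held both and no other of the 9 genes held either. The CArG box ran from base -58 to base -49 relative to the start and the EGR motif from base -105 to base -97, with no overlap. Its promoter is printed because Zfp36 had the highest level of the 10 genes, with the EGR motif and then the CArG box in capitals.

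Zfp36 promoter, chr7:28379179-28379478, minus strand: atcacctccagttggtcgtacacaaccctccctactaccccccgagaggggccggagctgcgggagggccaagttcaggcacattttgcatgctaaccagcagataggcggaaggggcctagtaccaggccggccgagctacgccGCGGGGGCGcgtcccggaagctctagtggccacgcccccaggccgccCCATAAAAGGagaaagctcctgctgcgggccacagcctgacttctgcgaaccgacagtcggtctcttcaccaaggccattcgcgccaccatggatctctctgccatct

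TATAAA, the TATA-box letters, stood in 13.6% of promoters and, of the 9 genes, in that of Zfp36l1, from base -29 to base -24. GGG, any 2 bases and TTTCC, letters of an NF-κB site, stood in 1.63% of promoters and TGACGTCA, a cyclic AMP response element, in 1.79%. Neither was found in the windows of the 9 genes, which says only that these letters are absent there.

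Each gene's level was set against 1 TPM, a floor for low expression. The test was limma's one-sided test of mean log2(TPM + 0.1) over the 3 libraries, with Benjamini-Hochberg adjustment over all 24180 genes tested. A gene with an adjusted p under 0.05 was called. All 10 genes were called, where 50.5% of all genes tested and 61.1% of protein-coding genes tested were called. Against a floor of 5 TPM, all 10 were again called, where 30.5% of all genes tested were. The median of the 10 genes was 22.6 TPM, against 2.02 TPM over all genes tested and 4.17 TPM over protein-coding genes tested.

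**Figure D1:**
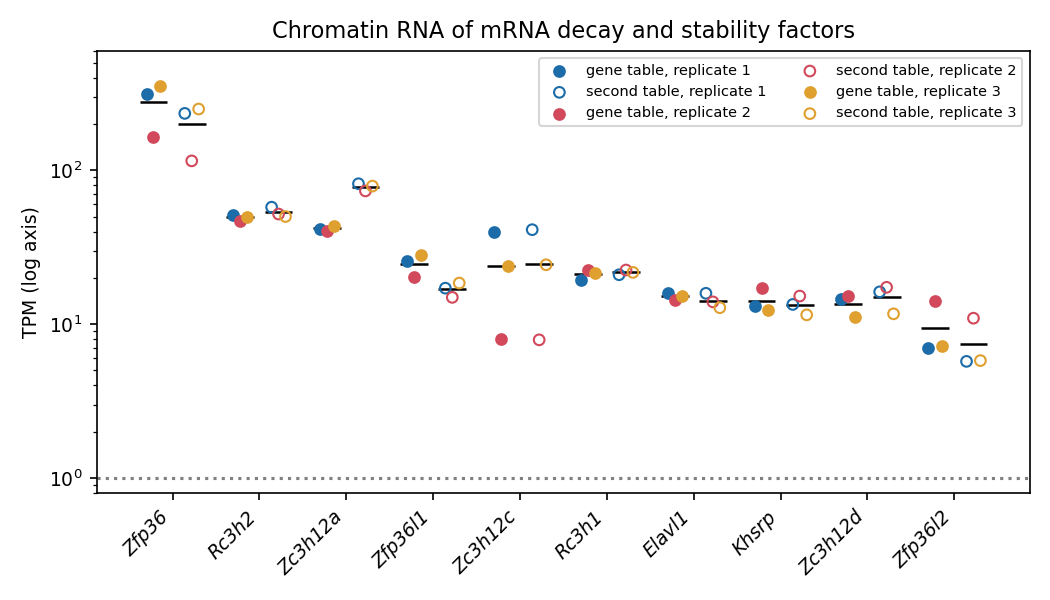
TPM on a log axis of the 10 genes, ordered by mean level, with filled points for the gene table and open points for the second transcript table summed per gene. Points are libraries, short lines are means of 3, and the dotted line marks 1 TPM. Zfp36 lies highest in both tables, Zc3h12a is higher in the second table, and Zc3h12c spans 7.98 to 39.89 TPM in the gene table.

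Zfp36 had the highest level of the 10 genes and ranked 153 by mean TPM among the 22028 annotated protein-coding genes. It measured 315.7 TPM in replicate 1, 164.0 TPM in replicate 2 and 356.0 TPM in replicate 3, a mean of 278.6 ± 101.2 TPM (SD, n = 3). Replicate 2 was the low library. The mean lay 7.91 ± 0.24 (SE) above 1 TPM on the log2(TPM + 0.1) scale (limma adjusted p = 2.05e-06). In each library Zfp36 exceeded Rc3h2, the next gene over all annotated transcripts, by 3.50 to 7.11 times.

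Zfp36l1, which shares the zinc fingers of Zfp36, measured 25.7, 20.1 and 28.3 TPM in replicates 1 to 3. Its mean was 24.7 ± 4.17 TPM (SD, n = 3), 4.48 ± 0.13 above the floor (limma adjusted p = 1.64e-06). Zfp36l2, a paralogue of both, measured 6.96, 14.1 and 7.16 TPM, so that replicate 2 was its high library. Its mean of 9.40 ± 4.05 TPM (SD, n = 3) was the lowest of the 10 genes and lay 3.03 ± 0.24 above the floor (limma adjusted p = 8.65e-05). Zfp36 made up 90.6%, 82.8% and 91.0% of the TPM of the 3 paralogues in replicates 1 to 3. Zfp36l2 made up 2.00%, 7.10% and 1.83%. Zfp36l3, the other paralogue annotated in mouse, had 1 count in replicate 2 and none elsewhere.

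Among the regnases Zc3h12a was the steadiest in gene TPM and Zc3h12c the most variable. Zc3h12a measured 41.4, 40.6 and 43.7 TPM in replicates 1 to 3, a mean of 41.9 ± 1.61 TPM (SD, n = 3). It lay 5.25 ± 0.09 above the floor (limma adjusted p = 5.28e-07), and its highest library was 1.08 times its lowest. Its transcripts were less even than this sum. The coding one measured 30.8, 26.5 and 32.6 TPM, lowest in replicate 2. The one typed retained intron measured 10.6, 14.1 and 11.1 TPM, highest in replicate 2. Zc3h12c, another CCCH-type RNase of the family, measured 39.9 TPM in replicate 1, 7.98 TPM in replicate 2 and 23.8 TPM in replicate 3.

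The mean of Zc3h12c was 23.9 ± 16.0 TPM (SD, n = 3), 4.17 ± 0.44 above the floor (limma adjusted p = 0.000327). The highest was replicate 1 and the lowest replicate 2, and without replicate 1 the mean was 15.9 TPM, 1.5 times lower. The ratio of Zc3h12a to Zc3h12c was 1.04, 5.09 and 1.84 in replicates 1 to 3, so the sign was shared and the size was not. Zc3h12d, a family member known mainly from lymphocytes, measured 14.5, 15.2 and 11.1 TPM, a mean of 13.6 ± 2.18 TPM (SD, n = 3). Zc3h12b, the remaining family member, was at 0.507 TPM and was not called.

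The roquins, which share a RING finger and an RNA-binding ROQ domain, were both present and both even across libraries. Rc3h2 measured 51.3, 46.8 and 50.1 TPM in replicates 1 to 3, a mean of 49.4 ± 2.31 TPM (SD, n = 3). Rc3h1 measured 19.5, 22.7 and 21.6 TPM, a mean of 21.2 ± 1.62 TPM (SD, n = 3). Rc3h2 was the higher in each library, by 2.64, 2.07 and 2.32 times. This order holds over all annotated transcripts of both genes and not over the coding ones alone, as the transcript values below show.

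Khsrp and Elavl1, the AU-rich element binders outside the CCCH families, had like levels. Khsrp measured 13.1, 17.1 and 12.4 TPM in replicates 1 to 3, a mean of 14.2 ± 2.54 TPM (SD, n = 3). Elavl1 measured 16.0, 14.3 and 15.3 TPM, a mean of 15.2 ± 0.877 TPM (SD, n = 3). Elavl1 was higher in 2 of 3 libraries, and the log2 ratio of Elavl1 to Khsrp was 0.11 ± 0.32 (SD, n = 3). The neuronal paralogues Elavl2 and Elavl4 had no counts in any library, which allows up to 3 counts over the group or 0.061 CPM (counts scaled to library size). Elavl3 had 1, 2 and 0 counts.

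By mean TPM the order was Zfp36, Rc3h2, Zc3h12a, Zfp36l1, Zc3h12c, Rc3h1, Elavl1, Khsrp, Zc3h12d and Zfp36l2. Of the 9 neighbouring pairs, 5 kept their order in all 3 libraries: Zfp36 over Rc3h2, Rc3h2 over Zc3h12a, Zc3h12a over Zfp36l1, Rc3h1 over Elavl1, and Zc3h12d over Zfp36l2. The other 4 pairs changed order between libraries. These orders are a description and no pair was tested; an exact two-sided sign-flip test over 3 libraries has a smallest p of 0.25. Rc3h2 over Zc3h12a was the closest of the 5, with a log2 ratio of 0.24 ± 0.06 (SD, n = 3). It reversed in the second transcript table, where the log2 ratio was -0.55 ± 0.09. Over protein-coding transcripts alone it also reversed in each library of the first transcript table. There Zc3h12a averaged 30.0 TPM and Rc3h2 16.5 TPM.

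The second transcript table gave the same 10 genes other sizes in places. Summed per gene, Zc3h12a averaged 78.1 ± 4.26 TPM there (SD, n = 3), 1.87 times its value in the gene table. Zfp36 averaged 200.3 ± 74.0 TPM, 0.719 times, and Zfp36l1 averaged 16.9 ± 1.80 TPM, 0.683 times. For the other 7 genes the second table gave 0.796 to 1.11 times the first. All 10 genes were called above 1 TPM in it too.

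Zfp36 is a short gene with a single intron in its annotation, and most of its counts went to a model that does not splice that intron out. Zfp36-201 has 2 exons separated by an intron of 680 bases, at chr7:28378494-28379173 in mm10. Zfp36-202 is a single exon of 2465 bases, at chr7:28376791-28379255 on the minus strand, that runs through the intron and is typed protein-coding. Zfp36-202 held 87.0%, 85.8% and 82.8% of the gene's expected counts in replicates 1 to 3, a mean of 85.2% ± 2.16 (SD, n = 3). In the second table it held 77.9% ± 2.19. The models share most of their exonic bases, so reads in the intron, across the junction or before the start of Zfp36-202 separate them.

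**Figure D2:**
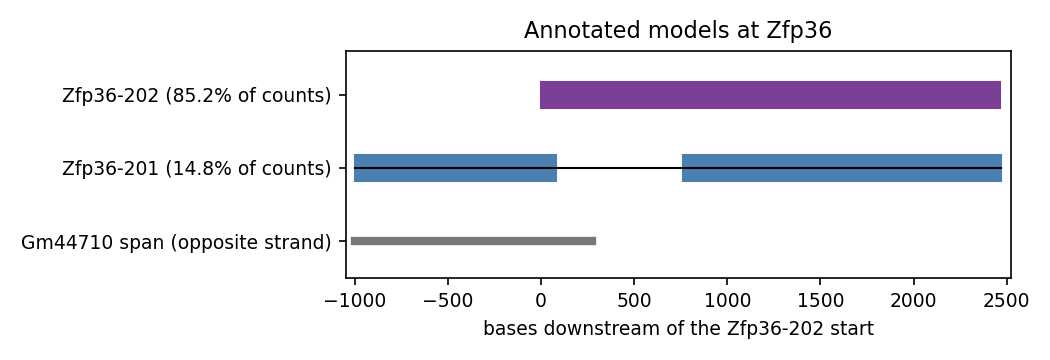
Annotated models at Zfp36, drawn to scale in bases from the start of Zfp36-202 with transcription running to the right; boxes are exons and the thin line is the intron. The single-exon model, which held 85.2% of expected counts, covers the 680-base intron of Zfp36-201; the grey bar is the part of Gm44710 that lies in the drawn window, including any introns it has.

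Across the 10 genes, 11 of 34 annotated transcripts are typed retained intron, and they belong to 5 genes. Rc3h2 has 5 of them, which held 33.9%, 37.0% and 31.1% of its expected counts in replicates 1 to 3, a mean of 34.0% ± 2.93 (SD, n = 3). In Elavl1 the share was 35.2%, 33.5% and 29.8%, a mean of 32.8% ± 2.78 (SD, n = 3). Most of it was Elavl1-202, a single exon of 4808 bases with 30.0% ± 2.71. The share of Rc3h2 lay above that of 71.8% and the share of Elavl1 above that of 70.9% of 10358 protein-coding genes with more than 1 transcript.

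Khsrp held 8.72% ± 3.06 of its counts in transcripts typed retained intron, Zc3h12a 6.25% ± 1.31 and Rc3h1 0.933% ± 0.257 (SD, n = 3 each). The second table gave Zc3h12a 20.5%. The median over the 10 genes was 0.466%, since 5 have no transcript of that type. Over the 8 with more than 1 transcript it was 3.59%, against 9.88% over the 10358 genes. Zfp36 counts as 0% by annotated type, although its leading model runs through an intron. Zfp36l1 and Khsrp differ from this, since their leading models are spliced, with 2 exons in Zfp36l1-201 and 18 in Khsrp-201. Exons of Zfp36l1-201 (99.1% of counts) cover 1424 bases that other coding models splice out, and those of Khsrp-201 (90.6%) cover 961. The other coding models held at most 0.899% of counts each in Zfp36l1 and 0.678% in Khsrp. These bases are thus exon in the leading models, and their share is not one of retained introns.

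**Figure D3:**
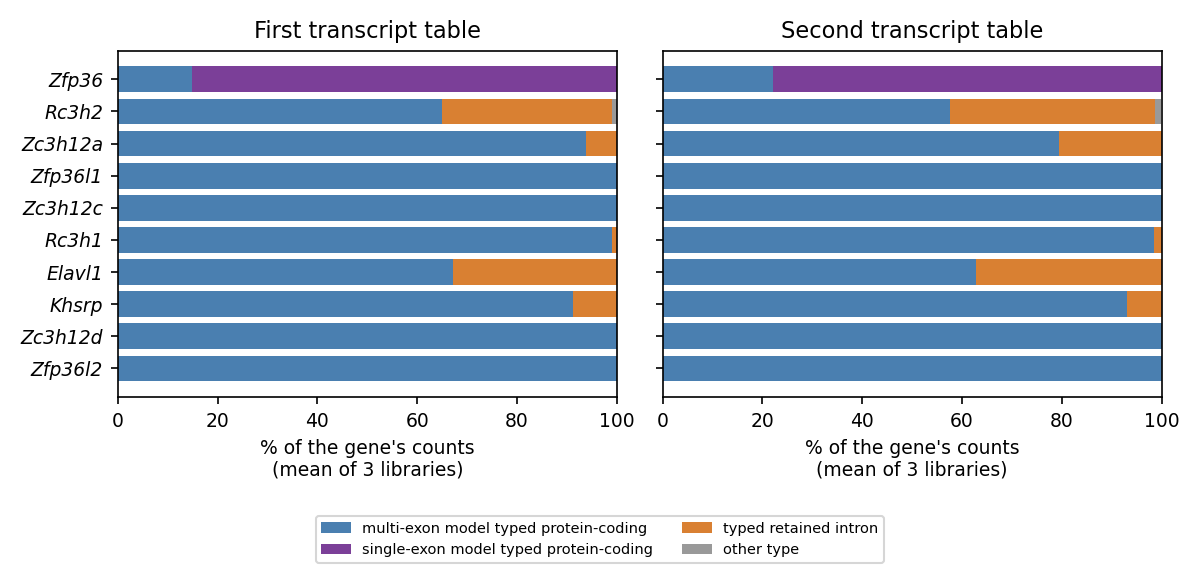
Share of each gene's counts, in percent and as the mean of 3 libraries, held by transcripts of each annotated type in the first (left) and second (right) transcript table. Rc3h2 and Elavl1 have the widest retained-intron segments, at 34.0% and 32.8% of counts in the first table, and Zfp36 is mostly its single-exon model.

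Short transcripts typed retained intron weigh more in TPM than in counts, because TPM divides by length. Over protein-coding transcripts alone, Rc3h2 was at 16.8, 14.7 and 18.1 TPM in replicates 1 to 3, which is 33.5% of its TPM. Rc3h1 was at 14.99, 19.2 and 18.6 TPM, 83.0% of its TPM. The coding ratio of Rc3h2 to Rc3h1 was therefore 1.12, 0.765 and 0.972, a log2 ratio of -0.09 ± 0.28 (SD, n = 3) that changed sign between libraries.

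In the second table Rc3h2 was the lower roquin in each library over coding transcripts, with ratios of 0.882, 0.763 and 0.918. In the first table Elavl1 came to 7.30 ± 0.301 TPM over coding transcripts (SD, n = 3), 48.0% of its TPM and the lowest coding level of the 10 genes. In the second table it came to 7.98 TPM and Zfp36l2, at 7.48 TPM, was the lowest. Zc3h12a came to 30.0 ± 3.12 TPM in the first table and 31.9 ± 2.25 TPM in the second (SD, n = 3 each). The 2 tables thus gave Zc3h12a like coding levels, and they differed in the TPM given to its 660-base retained-intron transcript.

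Other annotated genes overlap several of the 10, and the strand setting of the counting is not given in the sources used here, so reads of overlapping genes may not be told apart. Gm26669, a lincRNA on the opposite strand, spans 4967 bases of Zfp36l1 with its intron included, and its 2 exons hold 1808 bases. Gm26669 measured 10.8, 9.92 and 9.59 TPM in replicates 1 to 3. It was below Zfp36l1 in each library. Gm44710, antisense to Zfp36, measured 1.45, 0.90 and 1.48 TPM, and AC132455.1, antisense to Zfp36l2, had at most 2 counts.

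The first intron of Rc3h1, at chr1:160906700-160929963, holds 3 single-exon genes of unconfirmed status on the same strand, each of which measured 4.66 to 11.4 TPM. Gm37052 measured 10.04, 11.4 and 7.88 TPM, Gm37653 measured 7.41, 9.10 and 6.59 TPM, and Gm37809 measured 4.66, 10.2 and 5.78 TPM in replicates 1 to 3. They touch no Rc3h1 exon, and whether they are separate from Rc3h1 pre-mRNA was not tested. Ccl25, which starts head to head with Elavl1 and shares 204 bases with it, measured 24.96, 30.7 and 25.1 TPM. Most of this lay in single-exon models typed retained intron. Ccl25-210, which lies outside Elavl1, held 12.91, 16.05 and 12.45 TPM, and Ccl25-209 held 6.77, 9.02 and 6.34 TPM. The coding model Ccl25-201 held 2.15, 2.54 and 2.70 TPM. Gm17949, which overlaps Khsrp by 63 bases, had 1 count per library. Mir6244, Gm24726, Mir5104 and Snord90, small RNA genes inside Zc3h12c, Zc3h12d and Rc3h2, were at 0.

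The 10 genes split into steady and variable members. The spread was measured as edgeR's biological coefficient of variation (BCV), the replicate variation left after counting noise. It had a median of 0.173 over the 10 genes, against 0.210 over the 14140 genes kept. Genes of nonsense-mediated decay and of deadenylation, whose median levels were close to that of the 10, had like medians of 0.173 and 0.179. Zc3h12c had a BCV of 0.439, above 99.3% of genes kept, Zfp36 had 0.284, above 88.6%, and Zfp36l2 had 0.266, above 84.0%. The other 7 lay between 0.157 and 0.180. By this BCV Elavl1 was the steadiest, with 48.1, 49.0 and 48.4 CPM in replicates 1 to 3, and 0.0283% of genes kept had a lower BCV. In the second table Elavl1 was less even, at 15.9, 14.0 and 12.8 TPM, beside 20.95, 22.5 and 21.7 TPM for Rc3h1.

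Replicate 2 carried most of the spread of the variable members. Its departure was measured in CPM after TMM scaling, as the log2 difference from the average of the remaining libraries, after subtracting that of the median protein-coding gene. The departure of Zc3h12c was -2.04 and that of Zfp36 was -1.11, where the middle 50% of 10850 protein-coding genes ran from -0.24 to 0.26. Zfp36l2 went the other way with 0.92, and 97.8% of protein-coding genes departed less upward. Zc3h12c also departed by 1.40 in replicate 1. These 4 departures kept their sign under 5 other scalings, among them the second table, with values from -2.04 to -1.86 for Zc3h12c and from -1.09 to -0.92 for Zfp36 in replicate 2.

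**Figure D4:**
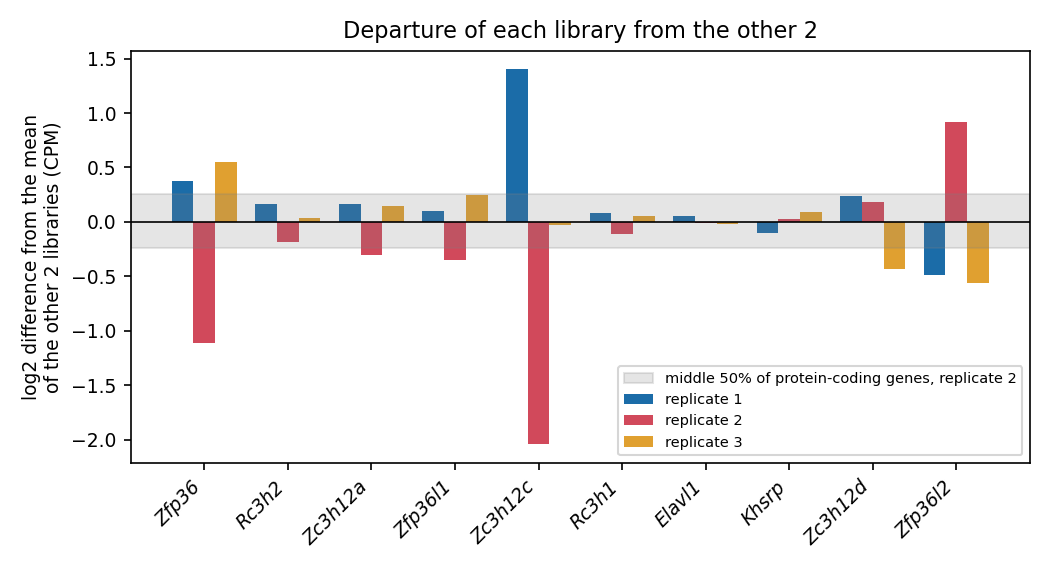
Log2 difference of each library from the mean of the other 2 in CPM, for the 10 genes ordered by mean level; the grey band is the middle 50% of protein-coding genes in replicate 2. Replicate 2 bars of Zc3h12c and Zfp36 reach -2.04 and -1.11, and that of Zfp36l2 reaches 0.92, while the bars of Elavl1, Khsrp, Rc3h1 and Rc3h2 stay within the band on this CPM scale.

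The remaining 7 genes departed by -0.35 to 0.18 in replicate 2 on this scale. Zfp36l1 departed by -0.35, just outside the band, and Zc3h12a by -0.30, which became 0.05 when TPM was rescaled over protein-coding genes. Khsrp departed by 0.03 in CPM but by 0.42 in TPM and by 0.54 in TPM rescaled over protein-coding genes, where the median protein-coding gene departed by 0.08 and 0.20. The gene table also holds credibility intervals of the posterior mean TPM, whose level is not stated. The intervals of the 3 libraries did not all overlap for Zfp36, Zfp36l2, Zc3h12c and Zc3h12d, and overlapped for the other 6 genes. They did not all overlap for 21.9% of all genes tested, 25.4% of protein-coding genes tested and 46.1% of the 6132 protein-coding genes called above 5 TPM, so 4 of 10 is near the share of genes at like levels. Such intervals cover the assignment of reads within a library and not the replicate spread.

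Known targets of the factors stood further from the other libraries in replicate 2 than the factors did. Of the 15 targets kept, 13 were below the other libraries in replicate 2, with a median departure of -1.69, against -0.15 for the 10 factors. Replicate 2 also had the least starting RNA, 250 ng, so the amount of input cannot be told apart from the replicate itself. In bulk RNA, fewer responding cells and less RNA per cell cannot be told apart either.

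The targets, a list of mRNAs known to be bound or degraded by these factors, spanned the widest range. Of 17 targets, 13 were called, with a median of 33.0 TPM. Tnf, the cytokine whose mRNA ZFP36 classically restrains, measured 574.5, 279.4 and 597.0 TPM in replicates 1 to 3. Cxcl2, a neutrophil chemokine, measured 468.9, 111.4 and 646.9 TPM. Nfkbiz, an IκB-family coactivator of secondary response genes, measured 364.2, 129.9 and 465.1 TPM. In all 3, replicate 2 was the low library.

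The targets not called were Il6, Csf2, Icos and Il12b. Il6, the reference substrate of regnase-1, measured 3.25, 0.61 and 4.55 TPM (limma adjusted p = 0.13). Csf2, the growth factor GM-CSF, had 1 count in replicate 2 alone, and Icos, the T cell costimulator targeted by roquins, averaged 0.49 TPM. Il12b measured 0.56, 0.08 and 1.75 TPM, and without replicate 3 its mean was 0.32 TPM. In their 3′ UTRs, 13 of the 17 targets held the heptamer and 6 held the nonamer. Over the 20784 genes with a 3′ UTR the shares were 26.9% and 7.43%, not matched on length. The targets were listed for reported binding or decay, so they are not an independent sample for these letters.

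**Figure D5:**
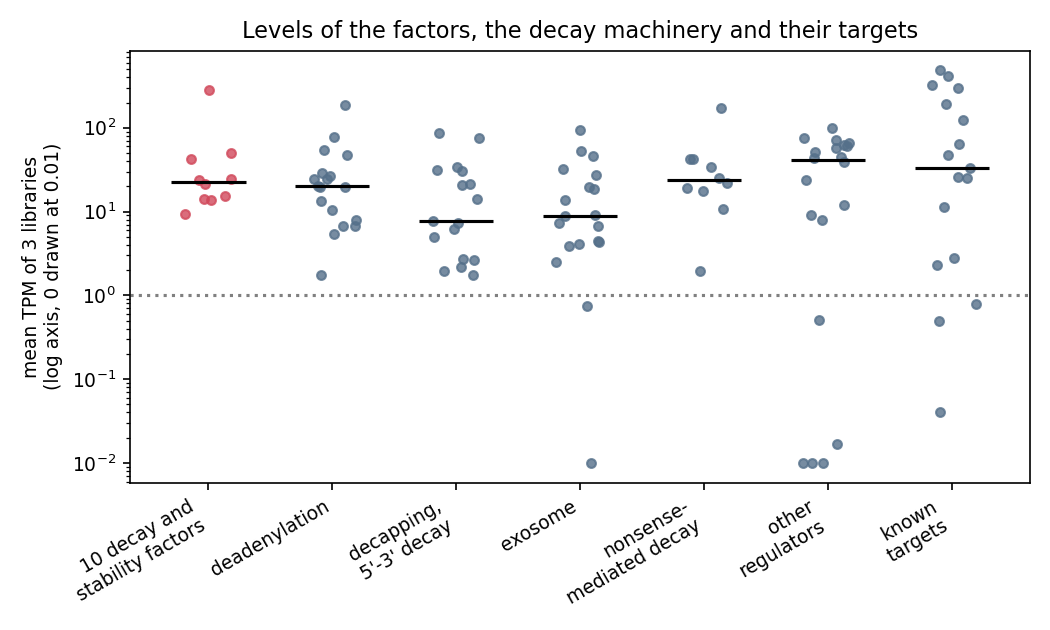
Mean TPM of 3 libraries on a log axis for the 10 factors (left) and the genes of the decay machinery, other regulators and known targets; points are genes, lines are medians, the dotted line marks 1 TPM and 0 is drawn at 0.01. The 10 factors lie between 9.40 and 278.6 TPM, all above the floor, and the targets spread from 0.04 to 483.6 TPM.

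The machinery that these factors recruit was read from the same test. All 18 deadenylation genes were called, with a median of 20.0 TPM, close to that of the 10 factors. Pan3, the adaptor of the PAN2 deadenylase, averaged 189 ± 19.6 TPM (SD, n = 3), and Cnot1, the scaffold of CCR4-NOT that ZFP36 and the roquins contact, averaged 77.1 ± 3.58 TPM. Btg2, an activator of the CCR4-NOT deadenylase, measured 40.1, 27.3 and 96.0 TPM in replicates 1 to 3, and without replicate 3 its mean was 33.7 TPM, against 54.5 TPM.

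Of 17 genes of decapping and 5′-3′ decay, 15 were called, with a median of 7.70 TPM. The exonucleases Xrn2 and Xrn1 averaged 87.4 ± 12.5 and 76.3 ± 7.33 TPM, and the helicase Ddx6 33.9 ± 0.592 TPM (SD, n = 3 each). Lsm7 and Lsm5, small subunits of the LSM ring, averaged 2.71 and 2.15 TPM and were not called, and without replicate 3 Lsm5 averaged 1.39 TPM. The second table gave Pan3 1.59 times and Xrn2 1.55 times the level in the gene table. Of 19 genes of the exosome and its cofactors, 17 were called, with a median of 8.76 TPM. Zfc3h1, which links the exosome helicase to polyadenylated nuclear RNA, averaged 94.9 TPM, the SKI helicase Skiv2l 52.6 TPM and Zcchc8, of the nuclear exosome targeting complex, 45.4 TPM. The ring subunits Exosc4, at 0.753 TPM (2.41 TPM in the second table), and Exosc6, with no counts, were not called.

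All 10 genes of nonsense-mediated decay were called, with a median of 23.5 TPM. The kinase Smg1 averaged 174 ± 4.53 TPM (SD, n = 3), and Smg5 and Smg9 averaged 42.1 and 42.0 TPM. Of 20 other regulators of stability, 15 were called, with a median of 41.1 TPM. Cpeb4, which binds U-rich 3′ elements, averaged 98.8 TPM and Hnrnpd (AUF1), an AU-rich element binder, 72.3 TPM. Mapkapk2, the kinase that phosphorylates and inactivates ZFP36 protein, measured 98.8, 36.8 and 93.4 TPM in replicates 1 to 3. Its departure in replicate 2 was -1.29, and the second table gave it 4.09 times the level. Such a departure was not particular to this kinase: Zfp36 had -1.11, Btg2 -1.38 and the known targets a median of -1.69. The 5 regulators not called were the family members named above: Zfp36l3, Zc3h12b, Elavl2, Elavl3 and Elavl4.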

How the data were processed

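Total RNA-seq of chromatin-fraction RNA was deposited for 3 biological replicates of 1 group. The authors' gene table and first transcript table hold expected counts, TPM and intervals of posterior mean TPM, per the file headers; their layout is that of RSEM. A further transcript table, called the second, has estimated counts beside TPM per the file headers, in the layout kallisto writes. The build is mm10, per the labels. Transcript IDs were matched to GENCODE M21. The sources used here do not name the aligner or strand setting. Unspliced chromatin RNA is assigned to exon models in these tables, which can raise models that hold introns.

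Deposited log-scale values were not used. TPM was tested as log2(TPM + 0.1) with limma 3.58.1 (intercept only, eBayes with trend, one-sided against 1 TPM, R 4.3.3). Expected counts were rounded for edgeR 4.0.16 (TMM, filterByExpr, tagwise BCV, intercept only); DESeq2 1.42.0 gave alternative size factors. Rows with no annotated gene, 0.401% to 1.04% of counts, were left out. With no second group, no fold change between conditions was computed. The level test was tested on simulated data, where of 50 genes each 0 were called at 1 TPM, 39 at 2 TPM and 50 at 4 TPM (16383 genes). Genes outside the 10 were named by rule: the 3 of highest mean TPM in each list and up to 3 not called, lowest first. Btg2 and Mapkapk2 are among them, and Il6 was chosen after its values were seen, as were the markers and paralogues named. The 10 genes, lists and motifs were chosen with earlier results of these data known. The replicates share a donor identifier, so p-values measure the spread between these samples. Counting limits of 0 cover counting error only.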

Additional observations from a re-analysis of the deposited data

How the results depend on the processing

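Pseudocount, low-value filter, floor, table, TPM scaling, variance prior and each left-out library were changed one at a time. All 110 values of the 10 genes stayed above the floor and past the threshold, with a largest limma adjusted p of 0.0437; the lowest, 0.82 on the log2 scale, came with the 5 TPM floor. Of 99 counts and medians, 94 stayed within 1.5 times or 1 SD of the main value. With the 5 TPM floor, 7384 genes in all were called in place of 12220, and 11 exosome genes in place of 17. The second table called 19620 genes in all, and the cause was not tested. The median percent of counts in retained-intron transcripts, 0.466, was 0.738 in the second table and 8.61 as a share of TPM, where short transcripts weigh more. No paired analysis was possible because the series has 1 group. The 3 libraries limit precision, and Zfp36l2, with 249 to 733 counts, and Khsrp, with 328 to 552, rest on the fewest reads.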
